A study of Mus musculus with 4 samples.

Results

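The peaks described here were called away from promoters in cells whose MIZ-1 lacks its POZ domain (MIZ-1DPOZ), in sequence largely free of masked repeats. They overlapped no peak called in cells with wild-type MIZ-1 (MIZ-1WT) and numbered 13997. They made up 17.9% of the 78357 peaks called in MIZ-1DPOZ cells. They were selected on the measured peak lists. From 78357 MIZ-1DPOZ peaks, 61535 lay away from promoters, meaning that the peak neither covered its nearest transcript start site nor lay less than 2000 bp before or 1000 bp after it. Of these, 19693 had at most 50% soft-masked bases (the repeat annotation of the genome) in the 201 bases centred on the summit, and 19584 of those had a GC content of at least 40%. Leaving out summits in coding exons gave 15983 distal non-repeat peaks. The 13997 that overlapped no MIZ-1WT peak are the members described here, and the other 1986 are called shared. The same criteria gave 2407 peaks in the MIZ-1WT list that overlapped no MIZ-1DPOZ peak, out of 34209 MIZ-1WT peaks.

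MIZ-1, encoded by Zbtb17, is a transcription factor with an N-terminal POZ domain and a row of zinc fingers. The zinc fingers bind DNA, whereas the POZ domain lets the protein pair with itself and with other POZ proteins, recruit cofactors and associate stably with chromatin. MIZ-1 is best known at promoters, where it activates or, with MYC, represses genes. Distal peaks can lie in enhancers, but also in CpG islands away from genes, in minisatellites (arrays of a short unit repeated head to tail) and in other sequence that is rich in G and C. A peak list by itself does not tell these apart.

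ChIP was carried out with a MIZ-1 antibody (H-190) on B220+ splenocytes, cells that carry a surface marker of the B lineage, with the same number of cells in each sample. MIZ-1WT cells came from wild-type mice and MIZ-1DPOZ cells from MB1-Cre x Miz-1floxedPOZ mice, in which Cre is made from the promoter of the B lineage gene Cd79a, so that the POZ exons are deleted in B lineage cells and MIZ-1 keeps its zinc fingers. The study's methods place the mice on a C57BL/6 background, and the labels give neither their age nor the number of animals pooled. Each genotype had 1 ChIP library and 1 input library, 4 libraries in all, so no difference between genotypes could be set against variation between mice and no test was made. Intervals are 95% intervals and cover counting error only. Peak lists hold no expression, so neither the cell type nor the deletion could be checked in them.

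The sequences that recur among the members are shown first, each as the 201 bases around a summit on the plus strand of GRCm38 (mm10). The words most in excess around single-copy members were runs of C with at most 1 other base. In the following examples the words CCACCC and CCTCCC and their complements GGGTGG and GGGAGG are in capitals. They are the strongest member nearest the genes Grin2a and Bcl11b, both of which led their gene list below, and a summit in an intron of Haus4 that was among the 10 strongest with a single-copy summit. The Haus4 window matched itself at 75.3% of bases at a shift of 31, and its marked words recur at that shift.
Grin2a intron, chr16:9894658-9894858: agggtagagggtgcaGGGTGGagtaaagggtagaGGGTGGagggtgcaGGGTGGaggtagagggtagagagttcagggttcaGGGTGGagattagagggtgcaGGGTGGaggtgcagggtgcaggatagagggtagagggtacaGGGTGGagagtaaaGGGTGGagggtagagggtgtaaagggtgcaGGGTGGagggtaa
Bcl11b intron, chr12:107980438-107980638: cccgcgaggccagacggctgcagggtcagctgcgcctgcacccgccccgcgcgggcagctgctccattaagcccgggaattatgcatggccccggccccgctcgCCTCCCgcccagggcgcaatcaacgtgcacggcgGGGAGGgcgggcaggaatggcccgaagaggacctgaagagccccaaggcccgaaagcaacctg
Haus4 intron, chr14:54544060-54544260: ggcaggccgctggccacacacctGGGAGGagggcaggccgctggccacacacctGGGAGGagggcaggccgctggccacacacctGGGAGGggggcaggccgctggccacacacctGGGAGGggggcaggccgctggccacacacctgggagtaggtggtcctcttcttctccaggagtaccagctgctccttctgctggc

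The strongest member whose summit occurred once in the genome lay near Tex36. Its letters repeated an E-box, the recognition word of basic helix-loop-helix and ZEB factors, which is in capitals (CACCTG or its complement CAGGTG).
Tex36, intergenic, chr7:133577245-133577445: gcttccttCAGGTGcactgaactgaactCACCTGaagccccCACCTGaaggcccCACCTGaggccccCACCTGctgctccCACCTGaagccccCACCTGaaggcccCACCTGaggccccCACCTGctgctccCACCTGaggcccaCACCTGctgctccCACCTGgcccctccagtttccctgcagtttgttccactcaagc

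The strongest members of all were tandem arrays that repeat masking had left unmasked. Capitals mark the first stretch as long as the shortest shift at which the window matched itself within 1 percentage point of its best match, 17 bases for Atg2b and 43 for Lyrm4.
Atg2b intron, chr12:105672278-105672478: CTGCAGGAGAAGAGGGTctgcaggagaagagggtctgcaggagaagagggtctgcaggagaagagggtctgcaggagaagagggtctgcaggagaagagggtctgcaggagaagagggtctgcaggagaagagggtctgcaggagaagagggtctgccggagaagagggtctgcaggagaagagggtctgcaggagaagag
Lyrm4 intron, chr13:36105379-36105579: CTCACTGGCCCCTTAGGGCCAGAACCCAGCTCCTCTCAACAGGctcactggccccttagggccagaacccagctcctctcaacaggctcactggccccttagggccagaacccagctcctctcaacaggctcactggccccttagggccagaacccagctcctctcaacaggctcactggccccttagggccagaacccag

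A further kind held runs in which pyrimidine and purine alternate, as they do in CA and CG repeats. The run is in capitals in 1 example, chosen after the values were seen, a member with a single-copy summit in an intron of Jmjd1c.
Jmjd1c intron, chr10:67164912-67165112: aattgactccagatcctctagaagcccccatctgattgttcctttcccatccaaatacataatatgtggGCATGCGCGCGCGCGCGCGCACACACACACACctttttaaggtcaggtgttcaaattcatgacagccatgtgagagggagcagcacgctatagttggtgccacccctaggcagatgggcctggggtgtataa

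Overlap with the MIZ-1WT list was used to choose the members, so its values are a description. Of the 15983 distal non-repeat peaks, 87.6% were members (87.1 to 88.1), whereas 77.9% of all MIZ-1DPOZ peaks overlapped no MIZ-1WT peak. The converse share was 54.0% (52.5 to 55.5) of the 4458 MIZ-1WT distal non-repeat peaks. The share over all MIZ-1WT peaks is not given here, so the 54.0% cannot be read as particular to distal non-repeat peaks. Most members were far from any MIZ-1WT peak: the median gap was 21.3 kb, and 71.8% of members (71.1 to 72.6) were over 10 kb away. Only 342 members (2.44%) lay within 500 bp of a MIZ-1WT peak.

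Members were low peaks. The summit pileup, the number of fragments over the highest point, had a median of 11 (quartiles 10 and 13) and ranged from 6 to 130. It was 14 (quartiles 11 and 19) at shared peaks and 9 (quartiles 8 and 10) at MIZ-1WT-only peaks, the latter counted in the shallower library. The median of the authors' fold enrichment over local background was 4.82 at members and 5.54 at shared peaks, and the median −log10 q was 5.05 and 6.90. Of all members, 25.8% (25.1 to 26.5) had the smallest width of the list, 173 bp.

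The MIZ-1DPOZ library was estimated to be 1.34 times deeper than the MIZ-1WT library. Depth was taken as the most frequent background divided by the smallest peak width. These were 1.35 fragments and 173 bp for MIZ-1DPOZ, and 0.860 fragments and 148 bp for MIZ-1WT. The backgrounds alone differed by more, and scaling by them, which would lower the scaled pileups, was not done. Divided by 1.34, the median member pileup was 8.19 fragments. In their own list, 61.5% of members stood on the most frequent background. On the most frequent background of the MIZ-1WT list, peaks had a median pileup of 8 and a minimum of 5. Once scaled, 60.7% of all members (59.9 to 61.5) reached 8 fragments and 99.9% (99.8 to 99.9) reached 5. The latter share was largely set by peak calling, since MIZ-1DPOZ peaks on their most frequent background had a minimum of 6 before scaling. Neither limit was raised for members on higher backgrounds. The list gives no MIZ-1WT signal where no peak was called, and the part that depth plays in the overlap was not tested.

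The share of distal non-repeat peaks that were members fell with height. It was 94.0% (93.1 to 94.8) at pileups up to 9, 86.0% at 13 to 15, 64.8% at 21 to 30 and 38.2% (33.5 to 43.1) above 30. Over all MIZ-1DPOZ peaks the share without a MIZ-1WT peak was 89.6%, 78.5%, 70.5% and 25.8% in the same classes. At 21 to 30 fragments the distal non-repeat share (60.7 to 68.6) was thus below that of all peaks. Among summits with a single-copy sequence, 11 of the 84 peaks above 30 fragments were members, or 13.1% (7.47 to 21.9).

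**Figure D1:**
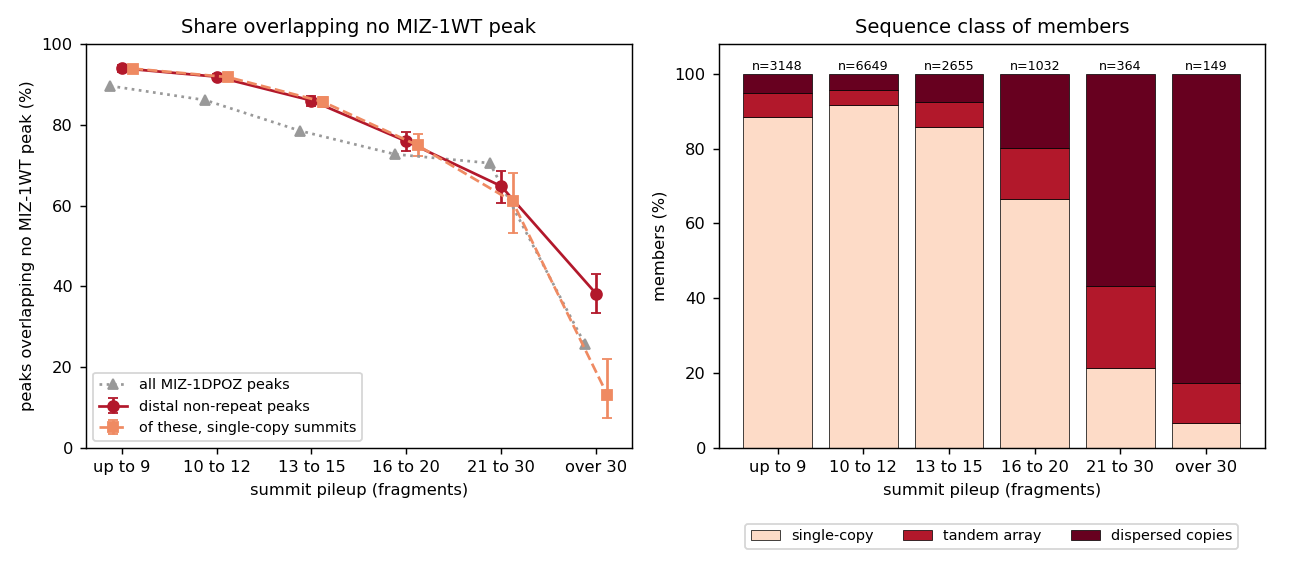
Left: share of MIZ-1DPOZ peaks that overlapped no MIZ-1WT peak (%) by summit pileup in fragments, for distal non-repeat peaks, for those with a single-copy summit and for all peaks, with 95% Wilson intervals where drawn. Right: share of members (%) in each sequence class by summit pileup; single-copy sequence made up 88.5% of members up to 9 fragments and 6.71% of those above 30.

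Although the rule asked for sequence outside masked repeats, the strongest members were repetitive. A summit was called tandem when at least 80% of its window matched itself at a shift of 8 to 100 bases, and dispersed when it was not tandem and the median count of 5 words of 50 bases from the window exceeded 1 in the genome. By these measures 11931 members (85.2%, 84.6 to 85.8) were single-copy, 880 (6.29%) were tandem and 1186 (8.47%) were dispersed. Of the 20 members with the largest −log10 q, 19 had a multi-copy summit: 9 were tandem and 10 dispersed. Above 30 fragments, 123 of 149 members were dispersed, 16 tandem and 10 single-copy. Most members were thus single-copy by these measures, but most of those above 30 fragments were not. A single-copy window could still hold masked bases or match itself at less than 80%. Single-copy members without an alternating run, described below, numbered 10711 (76.5%). Of these, 3226 (23.0% of all members) also had no masked base.

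Tandem arrays led the list. The member with the largest −log10 q, 53.5, lay in an intron of Atg2b, a gene of lipid transfer in autophagy, on chromosome 12 from 105672190 to 105672670. It had 54 fragments and an 18.8-fold enrichment, matched itself at 99.3% of bases at a shift of 51, a multiple of the shorter unit of 17, and had no masked base. The next was in an intron of Lyrm4, which encodes a factor of iron-sulphur cluster assembly, with 44 fragments, a 15.5-fold enrichment and a period of 43. Both arrays are printed above. The nearest MIZ-1WT peaks were 46.3 and 40.9 kb away. Another array, in an intron of the phospholipase gene Plcb4, had 40 fragments and a period of 29. Tandem summits had few CpG, with a median ratio of observed to expected CpG of 0.0214, against 0.294 at single-copy members. They made up 259 of 1986 shared peaks (11.6 to 14.6%) and 2.24% of MIZ-1WT-only peaks, and 0.364% and 0.365% of windows 2000 bp before and after members.

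Dispersed members formed families, whose origin was not tested since no repeat annotation beyond the soft mask was used. Joining members that shared a word of 30 bases gave 573 families, of which 371 held a single member and 14 held at least 10, with 270 members between them. The 4 largest held 31 members each. The first of them lay on 16 chromosomes, with a median of 33 fragments (10 to 46) and a median of 40 genomic copies. The fourth lay on chromosome 14 alone, with a median of 23 fragments. Reads of such copies can be placed at more than 1 position, and how the authors' alignment placed them is not given in the sources used here.

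The highest pileups were of this kind as well. Of the 12 members with at least 100 fragments, 11 had a multi-copy summit. They stood on a median background of 48.2 fragments, so that their fold enrichment was only 1.90 to 4.10. The 5 nearest Gm25283 on chromosome 6, from 47653528 to 47683987, had 105 to 118 fragments, and 4 more near the Y RNA gene Rny3 had 106 to 130. Shared peaks were interspersed among the Gm25283 members, 7 in all. The exception was a single-copy summit nearest Tmem267 on chromosome 13, with 106 fragments at a fold of 2.11 and a MIZ-1WT peak 389 bp away.

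Members with single-copy summits were led by the Tex36 site on chromosome 7 from 133577183 to 133577494, with 33 fragments, a 14.5-fold enrichment and a −log10 q of 30.8. It held 12 copies of the E-box letters printed above and no CpG. The other 9 had 27 to 58 fragments. They lay nearest Gm25391, Gm45405, Haus4, Gm23030, Gm46355, Gm16028, Gm44775, Rassf2 and 1700019A02Rik. Haus4, a subunit of the augmin complex of the mitotic spindle, had 30 fragments and an 11.1-fold enrichment at its intronic site. Rassf2, a RAS-association domain protein, had 28 fragments and a 10.4-fold enrichment at a site in its intron. Of these 10, the sites near Gm25391, Gm23030 and Gm44775 were tandem by their match with themselves, although their words of 50 bases occurred once in the genome by the median. The Gm16028 site combined 58 fragments with a fold of only 5.54 and a MIZ-1WT peak 335 bp away.

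A run of at least 24 bases that alternated between pyrimidine and purine was found in 1242 members (8.87%, 8.41 to 9.36), a pattern noticed in these data. The share was 3.66% in windows 2000 bp away (3.44 to 3.88), 13.7% at shared peaks (12.3 to 15.3) and 30.2% at MIZ-1WT-only peaks (28.4 to 32.1). These runs took up the GC-poor end of the members: of members with a GC content of 40 to 50%, 53.4% held one, whereas flanking windows of the same GC content did in 4.19% of cases. Their median masked share, 38.8%, was above the 11.9% of other members. Members with a run had a median of 11 fragments and at most 32. Such runs can form left-handed DNA, which is background and was not measured.

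GC content was higher at members than beside them. The median was 60.2% in the summit window against 46.8% in windows 2000 bp to each side, with the lower bound of 40% set by the rule. Shared peaks had a median of 63.7% and MIZ-1WT-only peaks 56.7%. CpG was higher at members as well. The mean number of CpG was 5.61 in the summit window, against 2.39 and 2.41 in windows 2000 bp before and after. The ratio of observed to expected CpG, which is high in CpG islands, had a median of 0.284 at members and 0.183 in their flanks, and of 0.465 at shared and 0.386 at MIZ-1WT-only peaks. A ratio over 0.6 was found at 13.8% of members (13.2 to 14.4), 36.5% of shared peaks (34.4 to 38.6) and 30.2% of MIZ-1WT-only peaks (28.4 to 32.1). A high ratio was thus less frequent among members than in either other class.

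**Figure D2:**
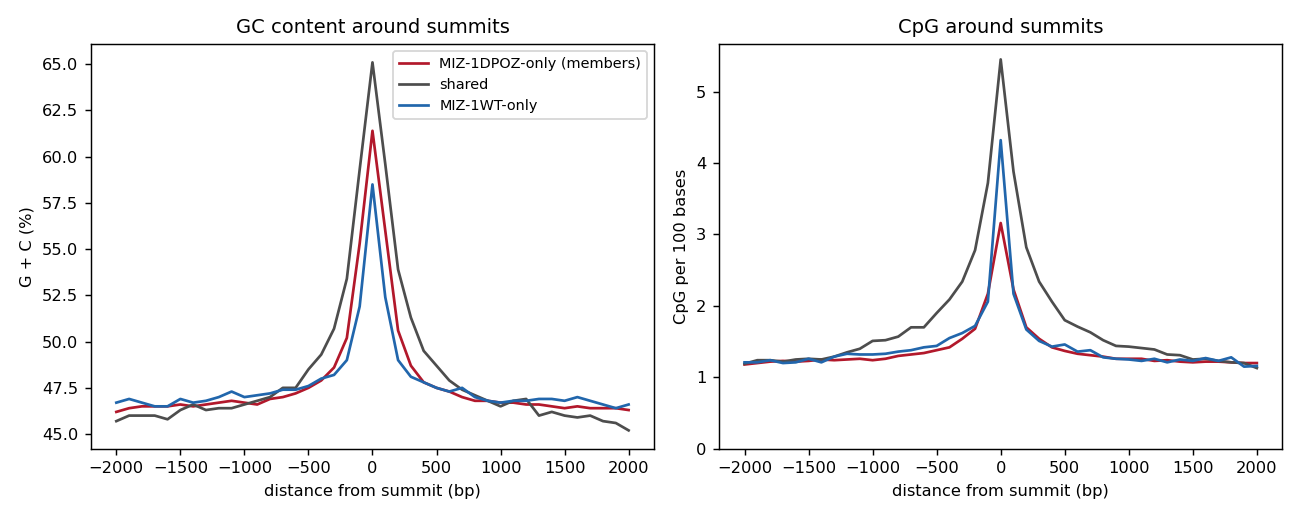
Percent G and C (left) and CpG per 100 bases (right) in steps of 100 bp around the summits of members, shared peaks and MIZ-1WT-only peaks, plotted against distance from the summit in bp. CpG at the summit was 3.16 per 100 bases in members, 5.45 in shared peaks and 4.32 in MIZ-1WT-only peaks, and 1.13 to 1.21 at 2000 bp in all of them.

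Clustered runs of G or C were found at members and shared peaks in shares whose intervals overlapped. At least 4 runs of 3 or more G (or C), separated by 1 to 7 bases, the letters of a possible G-quadruplex, were found at 30.2% of members (29.4 to 31.0), 31.5% of shared peaks (29.5 to 33.6) and 22.8% of MIZ-1WT-only peaks (21.2 to 24.5). In windows 2000 bp from members the shares were 4.77% and 4.61%. No folded structure was measured.

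**Figure D3:**
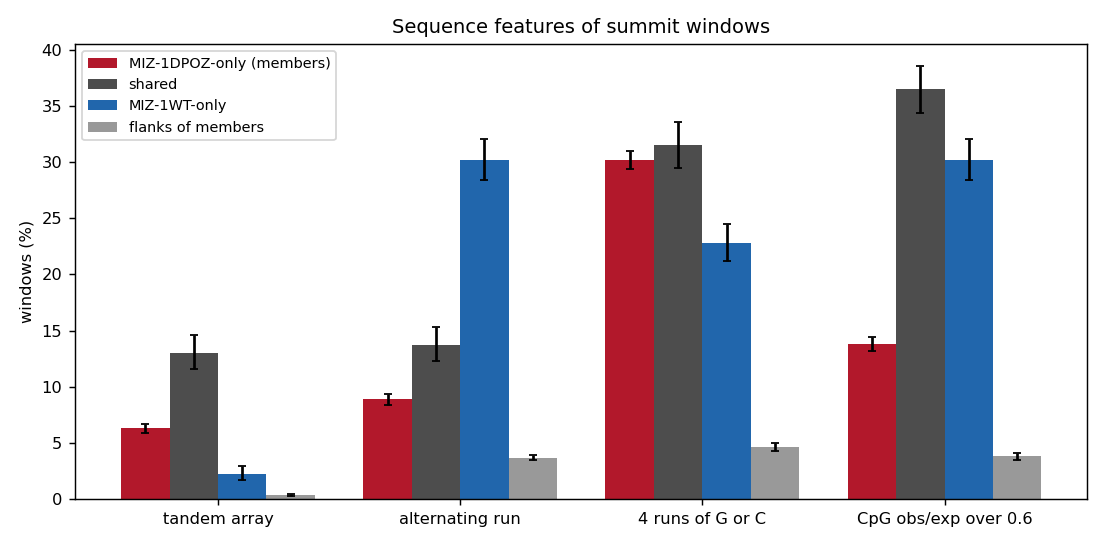
Share of summit windows (%) that were tandem arrays, held an alternating run of at least 24 bases, held 4 runs of G or C, or had a ratio of observed to expected CpG over 0.6, with 95% Wilson intervals. Bars are members, shared peaks, MIZ-1WT-only peaks and windows flanking members (2000 bp downstream in coordinates, both sides for alternating runs); tandem arrays were found in 6.29% of members and alternating runs in 30.2% of MIZ-1WT-only peaks.

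Words of 6 bases were ranked by their excess in single-copy members over the flanks. CCACCC came first, in 43.2% of single-copy members and 15.6% of flanking windows, followed by CCTCCC with 47.9% and 20.8%. All 12 leading words were made of C with at most 1 other base. CACCC, the core bound by the KLF family of zinc finger factors, was found in 63.5% of members and 36.9% of flanks. At equal GC content the excess was smaller or turned. At 40 to 50% GC, CACCC was found in 30.4% of members (27.7 to 33.2) and 34.7% of flanks (33.9 to 35.5). CCTCCC was found there in 14.1% of members (12.1 to 16.3), below the interval of 17.4 to 18.7% in flanks. Between 50 and 60% GC, CACCC was found in 62.2% of members and 52.0% of flanks, and CCTCCC in 42.9% and 32.2% (31.2 to 33.2). At 60 to 70% GC the values for CACCC were 70.3% and 61.9% (58.3 to 65.5).

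Motifs of 21 factors were searched on both strands. The GC box GGGCGG, bound by SP factors, was found in 2803 of 13997 members (19.4 to 20.7%), 28.2% of shared peaks, 15.7% of MIZ-1WT-only peaks and 3.65% of flanks. Its density within 25 bp of the summit, 31.5 hits per base over all members, was above the 15.1 at 51 to 90 bp. Within 50 to 60% GC it stood at 15.5% of members and 6.27% of flanks (5.78 to 6.81), and within 60 to 70% at 24.3% and 24.5%. The E-box CAGCTG, read by E2A and other B cell factors, was found in 17.5% of members and 9.81% of flanks. At equal GC content the shares were 6.39% and 8.39% at 40 to 50% GC, 15.8% (14.9 to 16.7) and an interval of 14.3 to 15.8% at 50 to 60%, and 20.9% and 17.5% at 60 to 70%, and its density did not rise towards the summit (15.8 and 15.7 hits per base).

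Words of other lymphoid factors were compared over all windows and at equal GC content. The PU.1 word GAGGAAG was found in 10.3% of members (9.84 to 10.9) and 7.53% of flanks, but in 5.64% and 6.98% at 40 to 50% GC, 11.8% and 10.7% at 50 to 60%, and 9.98% and 12.6% at 60 to 70%. The ETS core CCGGAAG was found in 1.79% (1.59 to 2.03) and 0.976%, with 1.67% and 1.66% at 50 to 60% GC. EBF (TCCCNNGGGA) had 1.12% and 0.611%, with 1.03% and 1.07% at 50 to 60% GC and 1.41% and 1.57% at 60 to 70%. The insulator factor CTCF, searched by its core, had 0.314% (0.234 to 0.422) and 0.179%, with 0.290% and 0.259% at 50 to 60% GC. The RUNX, OCT, IRF and AP-1 words were rarer over all members than over the flanks, and the gap narrowed or turned above 50% GC. RUNX (TGTGGTT) had 2.41% and 4.91%, with 2.97% and 3.74% at 50 to 60% GC and 1.95% and 1.43% at 60 to 70%. OCT (ATGCAAA) had 1.32% and 3.73%, with 1.79% and 2.00% at 50 to 60% and 0.674% and 0.143% at 60 to 70%. IRF (GAAANNGAAA) had 0.779% and 2.44%, with 0.991% and 1.27% at 50 to 60% and 0.450% and 0.286% at 60 to 70%. AP-1 (TGANTCA) had 3.75% and 5.77%, with 4.37% and 4.98% at 50 to 60% and 3.12% and 3.15% at 60 to 70%.

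NRF1 letters (GCGCANGCGC) stood out in position. They were found in 1.62% of members (1.43 to 1.84) and 0.0786% of flanks, and 163 of 268 hits lay within 25 bp of the summit. However, 169 of the 227 members with the letters also held an alternating run, and these letters themselves alternate where N is C or T. Without such a run the share was 0.455% of members (0.352 to 0.587) and 0.0519% of flanks, not matched for GC content. With runs included, the shares were 7.89% and 0.0388% at 40 to 50% GC and 1.90% and 0.153% at 50 to 60%. At 60 to 70% they were 0.390% and 0.429%. The letters were found at 3.73% of shared and 5.86% of MIZ-1WT-only peaks in all, and 70.3% and 88.7% of these peaks held a run. The MYC-type E-box CACGTG was found in 4.99% of members and 2.92% of flanks, and without a run in 3.76% (3.45 to 4.11) and 2.76% (2.57 to 2.96). With runs included, its shares were 10.1% and 2.99% at 40 to 50% GC and 5.16% and 3.65% at 50 to 60%. At 60 to 70% they were 4.03% (3.59 to 4.53) and 3.72% (2.55 to 5.39). A match of letters is a description and does not show which factor was bound.

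**Figure D4:**
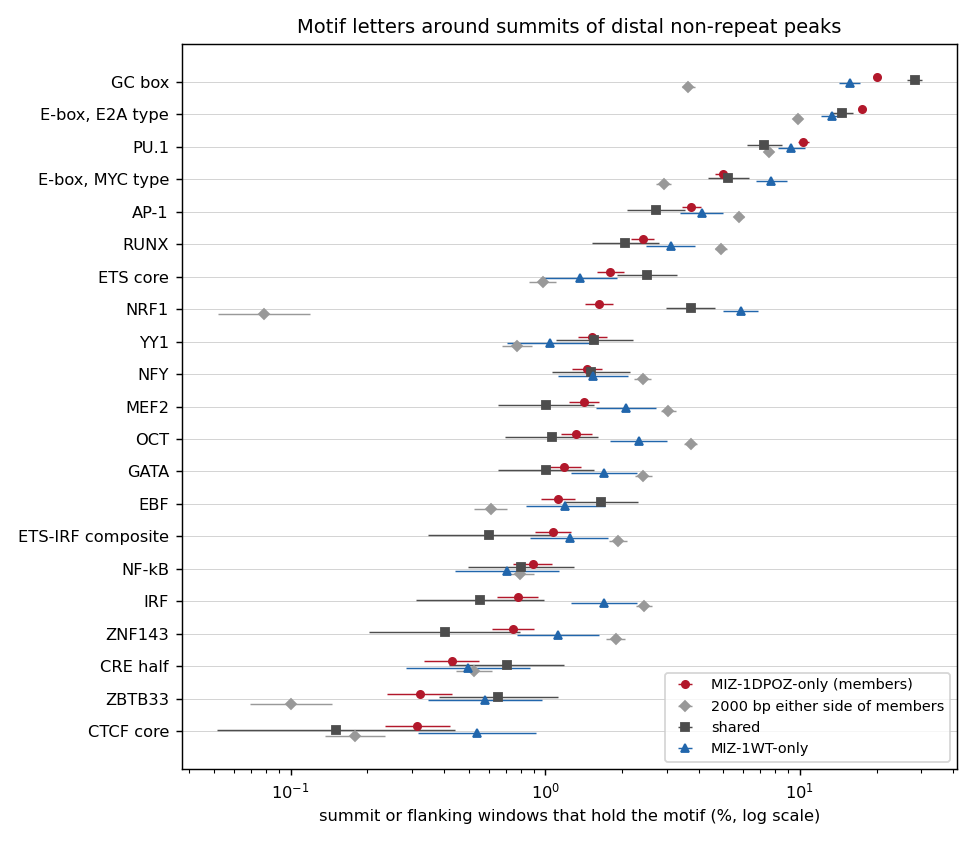
Share of windows of 201 bases that held the letters of each of 21 motifs (%, log scale) at members, at shared and MIZ-1WT-only peaks and 2000 bp to either side of members, with 95% Wilson intervals and no matching for GC content. The GC box was found in 2803 members and in 3.65% of flanking windows, NRF1 in 1.62% and 0.0786%, and RUNX in 2.41% and 4.91%.

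In the annotation, 54.5% of member summits (53.6 to 55.3) lay in introns, 5.49% in non-coding parts of exons and 40.1% between genes. The median distance to the nearest start site was 14113 bp, 38.6% lay within 10 kb and 13.7% over 50 kb away. Shared peaks (median 13941 bp, 51.8% intronic) and MIZ-1WT-only peaks (14119 bp, 56.7%) had medians whose intervals overlapped that of members. The nearest start site belonged to a protein-coding gene for 47.2% of members.

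Members were spread thinly over many genes. By nearest start site they were assigned to 9887 genes, of which 7213 had 1 member and 138 had 5 or more. Of 21951 protein-coding genes, 4541 (20.7%) had a member, and the share rose with gene length from 12.9% (11.9 to 13.9) under 5 kb to 33.4% (31.6 to 35.3) over 100 kb. A MIZ-1DPOZ promoter peak was assigned to 59.0% of protein-coding genes with a member and 40.5% of those without, and a MIZ-1WT promoter peak to 37.9% and 24.9%. Genes with a member were also longer, with a median of 27448 against 15499 bp.

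Lists of genes were read against the 20.7% of all protein-coding genes. Of 46 B cell transcription factors, 18 had a member (39.1%, 26.4 to 53.5), of 43 genes of the antigen receptor and its proximal signalling 11 (25.6%, 14.9 to 40.2), and of 39 genes of RAS-ERK and PI3K-AKT signalling 11 (28.2%). The autophagy list had 8 of 30 (26.7%). Lists chosen for other cell types gave the following shares: 12 of 30 neuronal and hepatocyte genes (24.6 to 57.7%), 5 of 21 myeloid, NK and erythroid genes (23.8%) and 3 of 20 T cell genes (5.24 to 36.0%). Median gene lengths were 70846 bp for the B cell factors and 63298 bp for the neuronal and hepatocyte genes, and 4991 bp for the myeloid, NK and erythroid genes. Nothing particular to B cell genes was read from these counts.

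**Figure D5:**
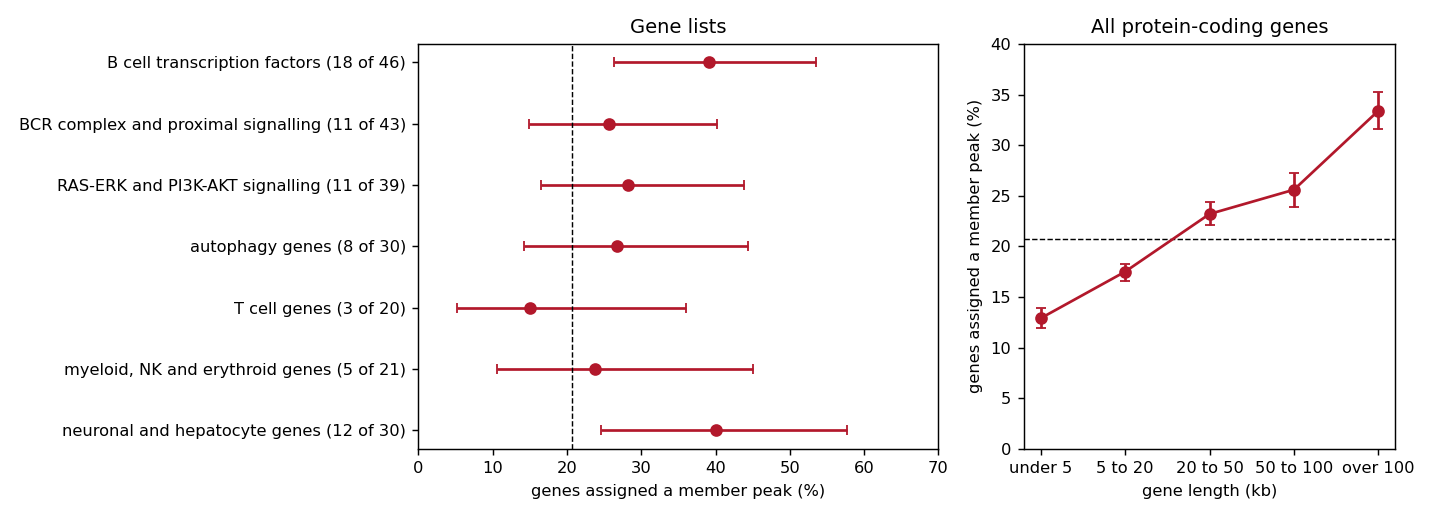
Left: share of each of 7 gene lists that was assigned a member by nearest start site (%), with 95% Wilson intervals; the dashed line is the 20.7% of all protein-coding genes. Right: the same share for all protein-coding genes by gene length in kb, from 12.9% under 5 kb to 33.4% over 100 kb.

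Among B cell transcription factors, the strongest members belonged to Relb, Id3 and Pou2f2. Relb, an NF-kB subunit of B cell maturation, had 2 members, the higher with 17 fragments and a 6.02-fold enrichment, 4032 bp before its start site in a non-coding part of a Clptm1 exon. Id3, an inhibitor of E proteins, had 2, the higher with 18 fragments and a 5.79-fold enrichment. Pou2f2, which encodes OCT2, had 3, the highest with 18 fragments and a 5.76-fold enrichment in its own intron, and a promoter peak in the MIZ-1DPOZ list but not in the MIZ-1WT list. The strongest members of the other genes of the list had 7 to 17 fragments. Among them, picked out as regulators of B cell identity after their values were seen, Ebf1, Ets1 and Myb had 12 fragments each and Irf8 had 11.

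In the receptor list, among the genes reported here, Rasgrp3, an exchange factor for RAS, had 13 fragments and Cr2, the complement receptor CD21, 12. The Rasgrp3 site lay in an intron of Ltbp1, 116440 bp before the Rasgrp3 start site, and the Cr2 site in an intron of Cr2. Neither Rasgrp3 nor Cr2 had a promoter peak in either list. Cd79b, the signalling chain of the receptor, had 1 member with 10 fragments and a 4.68-fold enrichment, 4873 bp before its start site in an exon of Scn4a.

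Map2k1, the kinase MEK1, led the RAS-ERK and PI3K-AKT list with 16 fragments and a 7.13-fold enrichment at a tandem array in its intron. Foxo3, a forkhead factor downstream of AKT, had 14 fragments and Pik3cb and Pik3r1, a catalytic and a regulatory subunit of PI3K, 13 each. The autophagy list was led by Pik3c3, the class III PI3-kinase, with 13 fragments, Atg16l1 with 13 and Atg7, whose site had 36 fragments at a fold of 2.80 in a dispersed sequence. The Atg16l1 site lay in an intron of Inpp5d, 38724 bp before the Atg16l1 start site. That of Atg7 was intergenic, 84959 bp before the start site.

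Genes of the lists for other cell types had members as well. Bcl11b, a regulator of T cell fate, had 9 members, the most of any gene in the lists together with Rbfox3, a neuronal splicing factor. The highest had 16 fragments and a 6.69-fold enrichment. Tcf7 (15 fragments) and Lef1 (11 fragments) were the other T cell genes with a member. Grin2a, a subunit of the NMDA receptor, had 1 member with 18 fragments, an 8.09-fold enrichment and a −log10 q of 12.1, above every member of the B cell lists. Neurod2 and Gria1 followed with 16 and 14 fragments at intergenic sites, that of Gria1 140528 bp before its start site. Adgre1, Itgam and Csf3r, of the myeloid list, had 11, 11 and 10. The Adgre1 site lay in an intron of Vav1, a gene of the receptor list, 36239 bp before the Adgre1 start site. The Csf3r site was intergenic, 44640 bp before the start site, and the Itgam site lay in an intron of Itgam.

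The study's text names 20 of the genes examined, and 8 of them had a member (21.9 to 61.3%), beside 20.7% of all protein-coding genes. Their median gene length was 63081 bp, and the share was higher for longer genes at large. Besides Pou2f2 and Cd79b these were Arhgef18 (12 fragments), Map3k1 (11), Spire1 (11), Tnk2 (11), Evl (10) and Itgav (10), each with 1 member and with promoter peaks in both lists. The Arhgef18 site lay in an intron of A430078G23Rik, 15962 bp before the Arhgef18 start site. The Evl site lay in an intron of Eml1, 50283 bp before the Evl start site.

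The heavy chain locus held 6 members, which were picked out after their values were seen. Within 188 kb around the constant genes on chromosome 12, 3 members lay 2234 to 3656 bp before the start of Ighg3 (11 to 12 fragments), 1 lay 5452 bp before Ighg1 (10 fragments), 1 before the pseudogene Gm37944 (11 fragments) and 1 downstream of Igha (12 fragments), with no MIZ-1WT peak within 9546 bp of any. In all, these 188 kb held 9 MIZ-1DPOZ peaks, of which 1 overlapped a MIZ-1WT peak, and 2 MIZ-1WT peaks. Over the whole MIZ-1DPOZ list, 77.9% of peaks overlapped no MIZ-1WT peak. The stretches before these constant genes include the switch regions, repeats rich in AGCT at which class switch recombination breaks the DNA. The annotation used here does not mark them. Capitals mark AGCT in the following windows, which held 4 and 8 copies against a mean of 1.32 over all members and 1.05 in their flanks. At the Ighg1 site 96.1% of bases matched at a period of 49.
Ighg1, upstream, chr12:113335953-113336153: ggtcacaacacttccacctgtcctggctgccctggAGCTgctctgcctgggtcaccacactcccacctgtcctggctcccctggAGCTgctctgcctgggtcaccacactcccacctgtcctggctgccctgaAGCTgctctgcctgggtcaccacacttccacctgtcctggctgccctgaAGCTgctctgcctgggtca
Ighg3, upstream, chr12:113364863-113365063: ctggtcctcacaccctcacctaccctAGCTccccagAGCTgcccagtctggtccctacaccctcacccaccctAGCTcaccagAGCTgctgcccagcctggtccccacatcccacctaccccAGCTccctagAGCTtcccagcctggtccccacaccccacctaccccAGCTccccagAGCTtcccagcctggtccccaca

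Gm20586, a processed pseudogene on chromosome 8, had 19 members with a median of 31 fragments and 12 shared peaks, and 2 of its members were single-copy. Nphp4, a gene of the primary cilium, had 13 members, 11 of them inside its 86.5 kb, with 9 to 20 fragments and no shared peak. Camta1, a calmodulin-binding transcription activator 945 kb long, had 12, all single-copy, with 9 to 17 fragments. The antisense transcript 4930589P08Rik, which lies within the span of Camta1, and the noncoding RNA A330074K22Rik had 11 each, and Gm17455, Gm22773, Kalrn and Zfp423 had 10 each. AC102081.1 shared the next place, with 9, with other genes including Bcl11b and Cdh23.

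Most members stood alone. Linked at gaps of at most 10000 bp, 10314 members (73.7%) had no neighbour, 298 groups held 3 or more and 15 held 5 or more. The largest, on chromosome 8 from 55479431 to 55519936 near Gm20586, held 13 members with a median of 13 genomic copies and 3 shared peaks between them. The second, within Gse1 on chromosome 8 from 120298512 to 120318336, held 6 single-copy members with 8 to 11 fragments and no shared peak. Groups of 5 followed at Cdh23, a cadherin gene, with 8 to 13 fragments, within Bcl11b, on chromosome 12 from 107964776 to 107987286, with 9 to 16 fragments, and within Anxa11, with 9 to 20 fragments, where 1 of 5 was single-copy.

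Across chromosomes, the density of members ran from 0.238 per Mb on chromosome Y and 2.05 on chromosome X to 8.51 on chromosome 11. Over 19 autosomes, density and the GC content of the chromosome had a Pearson r of 0.913, a description of points that share 1 library. The share of distal non-repeat peaks that were members was lowest among autosomes on chromosome 13, at 84.7%, and highest on chromosome 5, with 1056 of 1173 peaks. For all MIZ-1DPOZ peaks the order was the reverse, with 78.1% on chromosome 13 and 77.7% on chromosome 5 overlapping no MIZ-1WT peak. Shares by chromosome are given without intervals.

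At the limits of the rule, the closest values were as follows. The member nearest to being a promoter peak on the upstream side lay 2001 bp before 4930474M22Rik, and the nearest peak left out lay 1996 bp before Fes. The member with most masked bases, 49.8%, lay near Gm11783, and the next peak beyond the limit had 50.2%. GC content ran down to 40.3% in a member near Gm20786, with 39.8% in the nearest peak left out. The smallest gap to a MIZ-1WT peak was 3 bp, at a 16-fragment member near Camk2n2, and the smallest overlap that made a peak shared was 1 bp, at a peak near Akap7. Among shared peaks 2.32% (1.74 to 3.08) overlapped by under 50 bp.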

How the data were processed

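The submitters deposited 1 MACS2 narrowPeak list for each of the ChIP libraries. The study's methods describe trimming, alignment to mm10 with bwa and peak calling with MACS2, whereas the submitters' processing notes name Bowtie2 2.2.6 and MACS2 2.1.0. The deposited columns used were the fold enrichment (a ratio over local background), the −log10 p and −log10 q, and the authors' integer score. The threshold on q and the treatment of duplicates and multiply placed reads are not given in the sources used here. The smallest −log10 q was 1.01 in the MIZ-1DPOZ list and 1.03 in the MIZ-1WT list.

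Pileups and backgrounds were solved from the deposited fold and −log10 p of each peak. Relative depth was estimated from the most frequent backgrounds and the smallest peak widths. Total reads are unknown. Summits were annotated with GENCODE M21 basic transcripts and the soft-masked GRCm38 genome (Python 3.11.15, numpy 2.4.6, pandas 2.3.3). An overlap of 1 bp made a peak shared. Shares carry Wilson intervals. The steps were tested on simulated data. The members, gene lists and motifs were chosen with earlier results of these data known, and the tandem, dispersed and alternating classes, the 3 words CACCC and, beside it, CCTCCC and a ZEB-type E-box, and the counts of AGCT, were added after the data were seen. The ZEB-type E-box (CACCTG) was found in 22.7% of members and 15.3% of flanks. At equal GC content the difference was smaller or turned. The shares were 13.2% and 14.6% at 40 to 50% GC and 21.6% and 20.8% at 50 to 60%. At 60 to 70% they were 25.5% (24.5 to 26.6) and 23.0% (20.1 to 26.3). The text names the 10 strongest single-copy members, the 10 genes with most members, up to 3 genes of each list, the study's genes, 5 groups and the members nearest each limit. Other genes and sites it names, among them Atg2b, Lyrm4, Plcb4, Rbfox3 and the heavy chain genes, were chosen after their values were seen. Input libraries have no list of their own and were not analysed here. Some items are not reported here.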

Additional observations from a re-analysis of the deposited data

How the results depend on the processing

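No paired analysis was possible because the design holds a single ChIP library per genotype, with no replicate number to pair. Of 74 recomputed values, 48 stayed within the interval of the value reported, or within 1.5 times it for counts, and the other 26 follow. By construction the alternatives keep or join different peaks, except that the ETS search within 50 bp changes the window and the assignment by host gene changes the genes of the same members. Requiring a −log10 q of at least 5 in both lists left 7914 members, 92.7% of distal non-repeat peaks, with a median pileup of 13, 52.6% in introns, a median distance of 15418 bp, a GC content of 61.2% and 6421 genes. Allowing no masked base left 4354 members, 84.9%, with 57.3% in introns, 12862 bp, 61.2% GC, an ETS core in 2.07% and 3681 genes. The share of members was 85.4% when a MIZ-1WT peak within 500 bp counted as shared, 91.3% when only a reciprocal overlap of 50% did, and 89.0% over single-copy summits, where 55.7% lay in introns. Leaving out peaks within 5000 bp of a start site gave 53.3% in introns and 18856 bp. An ETS core within 50 bp was found in 0.872%, and assigning members by the gene that holds them gave 5068 genes. Without tandem arrays, dispersed copies and alternating runs, an alternative chosen after seeing the data, the values were 90.1% members, 55.4% in introns, 60.7% GC and 2.13% with an ETS core.

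With 1 library a genotype, a difference between the lists cannot be told apart from one between libraries. The peak lists give no signal where no peak was called, and the MIZ-1DPOZ library was estimated to be 1.34 times deeper. Placement of reads among copies of dispersed and tandem sequence was not tested. A nearest start site is a position and no measure of regulation.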
